A study of Mus musculus with 6 samples.

Results

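The mouse genes of the late cornified envelope (Lce), small proline-rich protein (Sprr) and S100a families were read on 1-colour 60-mer arrays from WT MEF, fibroblasts grown out of mouse embryos, and from MEF that lacked TIA1 or TIAR. Every probe outside the array controls whose gene name began with Lce, Sprr or S100a followed by a number was taken. That gave 54 of the 55681 probes, for 46 genes: 20 probes of 17 Lce genes, 17 probes of 15 Sprr genes and 17 probes of 14 S100a genes. The set was drawn up knowing that Lce1i had among the largest falls in TIA1 KO MEF, and was in that sense selected on the array values of TIA1 KO against WT MEF. Values of that comparison are therefore given as a description, with no p-value. In TIAR KO MEF 6 Lce1 genes (Lce1a2, Lce1c, Lce1f, Lce1g, Lce1h and Lce1i), S100a1, S100a13, S100a7a and S100a8 fell. All of these also read lower than WT in TIA1 KO MEF, with S100a7a and S100a8 not past both thresholds, and the Sprr genes were mostly at background.

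The study asked how the transcriptome of MEF differs when either of 2 related RNA-binding proteins is missing. RNA was taken from immortalized WT MEF (strain W4), immortalized MEF knocked out for TIA1 (strain BALB/c) and immortalized MEF knocked out for TIAR (strain C57BL/6), with 2 arrays per group from independent replicates. Each group thus has its own strain, and the labels do not say that it holds more than 1 cell line, so the effects of genotype, of strain and of the line cannot be told apart. The 6 arrays shared 1 slide, with the TIA1 KO arrays in its row 2 and the others in row 1, so slide row and TIA1 genotype cannot be told apart either. The p-values below measure the spread between these arrays, and 2 arrays per group limit the precision of every value.

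Median spot intensities were 151.8 and 140.4 (WT), 136.2 and 119.5 (TIAR KO), and 458.1 and 217.6 (TIA1 KO). TIA1 KO replicate 1 stood apart, with a negative-control median of 195.7 against 88.6 to 118.9 on the other 5 arrays, and had the fewest probes well above background, 16000 against 19920 to 26254. A probe was rated well above background on an array when the scanner software rated at least 50% of its usable spots so. Values are log2 of the normalized intensity, and changes and their standard errors (±) are on the log2 scale, with 2 arrays per group unless stated. A probe was called when limma gave a Benjamini-Hochberg adjusted p under 0.05 over all probes and the fold change was above 2.

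Lce, Sprr and S100a genes lie together in the epidermal differentiation complex, a gene cluster known for its expression in skin. When keratinocytes leave the basal layer they lay down a cornified envelope under the cell membrane, in which transglutaminases cross-link loricrin, involucrin, SPRR and LCE proteins. S100A proteins are small EF-hand proteins that bind calcium and then other proteins, and several of them are made in many cell types besides keratinocytes.

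All 54 probes lay on chromosome 3 between positions 90314959 and 93368496 of mm9, the build of the array files, an interval of 3.05 Mb. S100a genes flanked it on both sides, with the Sprr genes and then the Lce genes between them. Members of these families resemble each other, and some probes share stretches with a probe of another gene. The brighter Lce1i probe (chr3:92581159-92581218) shared 17 bases with the Lce1g probe (chr3:92554289-92554348). The dimmer Lce1i probe (chr3:92581269-92581328) shared 29 bases with the Lce1h probe (chr3:92567272-92567331). They are shown because the signal of such a pair may not be independent, and in the following stretches of 30 bases, 5′ to 3′, capitals mark the shared run.
Lce1i, brighter probe: gaaacgacaatgcCCATTTGCCTCTTTGTT
Lce1g: caatgaCCATTTGCCTCTTTGTTataaatt
Lce1i, dimmer probe: GTGCAGGAGGAGCACATGCTCAGAAGATTc
Lce1h: GTGCAGGAGGAGCACATGCTCAGAAGATTa

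The start regions of the Lce1 genes are also alike. RefSeq promoter windows of GRCm38.p6, running from 250 bases before to 50 bases after the gene start, were found for 40 of the 46 genes, 44 windows in all because some genes have several starts. Lce1f was among those without one. In a global alignment, the Lce1i window was 86.0% identical to that of Lce1g, 80.7% to Lce1h, 78.6% to Lce1e and 69.1% to Lce1c, and 50.6% to 65.9% to the other Lce1 windows. A run of 10 bases, AATAAAAGGA, was taken from the Lce1i window after the windows were read. It starts 30 bases before the gene start in each of the following windows that shows it in capitals. The windows run 5′ to 3′ on the gene's strand, from 80 bases before to 20 bases from the start, and their positions differ from those of mm9.
Lce1i (chr3:92778880-92778979, minus strand): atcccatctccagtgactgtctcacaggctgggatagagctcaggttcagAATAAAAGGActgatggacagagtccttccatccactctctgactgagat
Lce1g (chr3:92752319-92752418, minus strand): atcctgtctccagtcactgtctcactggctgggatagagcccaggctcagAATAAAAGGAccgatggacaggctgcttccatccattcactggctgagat
Lce1h (chr3:92765046-92765145, minus strand): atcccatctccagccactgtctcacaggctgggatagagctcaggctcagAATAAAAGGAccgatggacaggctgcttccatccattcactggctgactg
Lce1c (chr3:92679167-92679266, plus strand): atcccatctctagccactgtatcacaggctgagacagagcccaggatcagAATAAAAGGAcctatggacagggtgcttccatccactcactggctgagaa
Lce1e (chr3:92709055-92709154, minus strand): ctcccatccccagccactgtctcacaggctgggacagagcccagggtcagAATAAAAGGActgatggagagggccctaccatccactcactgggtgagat
Lce1a2 (chr3:92670296-92670395, minus strand): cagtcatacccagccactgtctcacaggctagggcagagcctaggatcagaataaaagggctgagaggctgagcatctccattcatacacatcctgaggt

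On either strand, AATAAAAGGA stood in 5 of 12 Lce1 windows (41.7%), in 57 of all 32851 windows (0.174%), and in none of the 13 Sprr or 15 S100a windows. The run came from the Lce1i window and the Lce1 windows are alike, so nothing is read from this contrast. TATAAA, the letters of a TATA box, stood in 10 of 13 Sprr windows (76.9%), 2 of 16 Lce windows, 4 of 15 S100a windows and 13.6% of all windows. TGANTCA, the letters that AP-1 factors bind, stood in 9 of 13 Sprr windows (69.2%), 0 of 16 Lce windows, 2 of 15 S100a windows and 7.81% of all windows. TGACNNNGC stood in 13.6% of the windows of member genes and 12.4% of all windows, and GGGCGG in 11.4% and 35.7%. Overlaps between motifs were kept. A match describes the letters only.

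The deleted genes were read first. Tia1 read 10.72 and 8.54 for WT, 7.87 and 8.44 for TIA1 KO and 9.56 and 9.58 for TIAR KO MEF. Tial1, which encodes TIAR, read 13.22 on WT replicate 2 (the spot on replicate 1 was dropped as an outlier), 14.07 and 13.69 for TIA1 KO and 9.57 and 11.60 for TIAR KO MEF. Each was lowest in the MEF that lack it. But the WT arrays of Tia1 and the TIAR KO arrays of Tial1 lay far apart, and neither change was past both thresholds. The log2 fold change of Tial1 in TIAR KO MEF was -2.63 ± 0.87 (SE; limma adjusted p = 0.200, n = 1 against 2). The Tial1 value was -3.65 without TIAR KO replicate 2, which left 1 array in each group. Whether these probes lie in the deleted parts was not analysed here.

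The fibroblast label was checked with 10 marker genes, of which 6 were well above background on both WT arrays. Vim, a filament protein of mesenchymal cells, read 17.24 and 17.49 in WT MEF, and the collagen gene Col1a1 read 15.29 and 15.09. Pdgfra, a growth factor receptor of fibroblasts, was not well above background on either WT array (6.37 and 6.40), and the extracellular matrix gene Dcn (6.57 and 6.62) and the surface marker Thy1 (6.63 and 6.98) were so on 1 of the 2. The collagen gene Col3a1 read 9.52 and 9.08 for WT, 15.59 and 15.65 for TIA1 KO and 15.16 and 16.65 for TIAR KO MEF, far lower in WT. WT MEF were thus bright for Vim and Col1a1, dim for Col3a1, and at or near background for Pdgfra, Dcn, Thy1 and Lum. In TIAR KO MEF, Dcn read 15.67 and 15.82 and Thy1 14.84 and 14.74, and in TIA1 KO MEF, 9.24 and 9.29, and 7.11 and 7.48.

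Against WT MEF, 8 of the 10 fibroblast markers rose in TIAR KO MEF, and 7 were called higher in TIA1 KO MEF. Of all probes, 3.39% and 2.18% were called higher. The Col1a2 call in TIAR KO MEF was lost without either array of that group, and in TIA1 KO MEF the calls of Col1a2, Dcn, Col1a1 and Pdgfrb were lost under 8, 6, 5 and 4 of 14 alternatives and the other 3 under 3. The log2 of their summed intensity was 18.30 and 18.21 for WT, 20.05 and 19.99 for TIA1 KO and 20.06 and 20.05 for TIAR KO MEF, with the brightest probe that of Vim in WT MEF and that of Col1a2 in both knockouts. These markers moved with genotype in the opposite direction to the called Lce and S100a probes described here, and their part in those results was not tested. In bulk RNA, fewer cells of a type and less RNA per cell cannot be told apart.

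In TIAR KO against WT MEF, 13 of the 54 probes were called (24.1%), 12 lower and 1 higher, where 5.76% of all probes were called, 2.37% lower and 3.39% higher. Of the 27 member probes well above background on both WT arrays, 12 were called (44.4%), where 10.8% of all probes so rated were. That filter selects on the WT signal, so nothing is read from it. In TIA1 KO against WT MEF, 9 of the 54 were called (16.7%), all lower, where 3.54% of all probes were called, 1.36% lower and 2.18% higher; nothing is read from this count, since that comparison chose the set. The median log2 fold change of the 54 probes was -0.24 in TIAR KO and -0.29 in TIA1 KO MEF, and that of all probes was -0.02 and -0.09. Both comparisons use the same 2 WT arrays, the ones through which Lce1i came to be chosen, so the TIAR KO values are not independent of that choice. In TIA1 KO MEF the 9 calls became 11, all lower, without replicate 1 of that group, the array that stood apart, and 16 lower and 3 higher (Lce3a, Sprr2j-ps and an Sprr2a2 probe) without replicate 2. Without either WT array limma called none of the 55681 probes, although 7202 (without replicate 1) and 7415 (without replicate 2) had an unadjusted p under 0.05. In TIAR KO MEF the 12 lower calls became 10 to 12 when an array was left out. Such a fit takes the spread from the group that kept both arrays and assumes that the lone array varies like them, so these counts are a weak check. Without regard to calls, both TIAR KO arrays lay below both WT arrays on 30 of the 54 probes and above them on 7, where 27% and 21.9% of all probes did so. For TIA1 KO these numbers were 28 and 7, against 39.2% and 26% of all probes.

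Where a group was not well above background on any of its arrays, its log2 value is near the floor and a fold change has only a nominal lower limit. This was computed by raising each of its arrays to the smallest log2 value that counted as well above background there, keeping the reading of the probe itself if it exceeded this. It is written as "at least N-fold". The smallest such value was 5.783 on TIA1 KO replicate 2 and 8.029 on TIA1 KO replicate 1. Some probes not rated well above background read higher, such as the dimmer Lce1a2 probe at 8.35 on TIA1 KO replicate 2. A stricter floor would therefore give smaller limits, and the true change may be below the N given.

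The Lce genes encode proteins added late to the inner face of the cornified envelope. Of the 17 genes, 7 were rated well above background on both arrays in 1 group or more, and all 7 were so in WT MEF. Of the 20 Lce probes, 7 fell in TIAR KO MEF (35%) and 6 were called lower in TIA1 KO MEF (30%), all of the Lce1 group, and none was called higher. Of all probes, 2.37% and 1.36% were called lower.

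Lce1i read 13.06 and 12.51 for WT, 6.77 and 7.03 for TIA1 KO and 6.60 and 6.99 for TIAR KO MEF. Both WT arrays were high and the 4 knockout arrays sat at background. The log2 fold change was -5.98 ± 0.25 (SE, n = 2 per group) in TIAR KO MEF (limma adjusted p = 0.000382), at least 57.7-fold lower, and -5.88 ± 0.26 in TIA1 KO MEF, at least 38.1-fold lower.

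The dimmer Lce1i probe read 9.55 and 10.29 for WT, 7.81 and 7.30 for TIA1 KO and 6.64 and 6.78 for TIAR KO MEF. The order of the groups was that of the brighter probe in WT against either knockout, over a smaller range. It fell by 3.21 ± 0.27 in TIAR KO MEF (limma adjusted p = 0.00287), at least 7.94-fold, and in TIA1 KO MEF the log2 fold change was -2.36 ± 0.34, at least 4.77-fold lower, not called but past both thresholds under 7 of 14 alternatives.

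**Figure D1:**
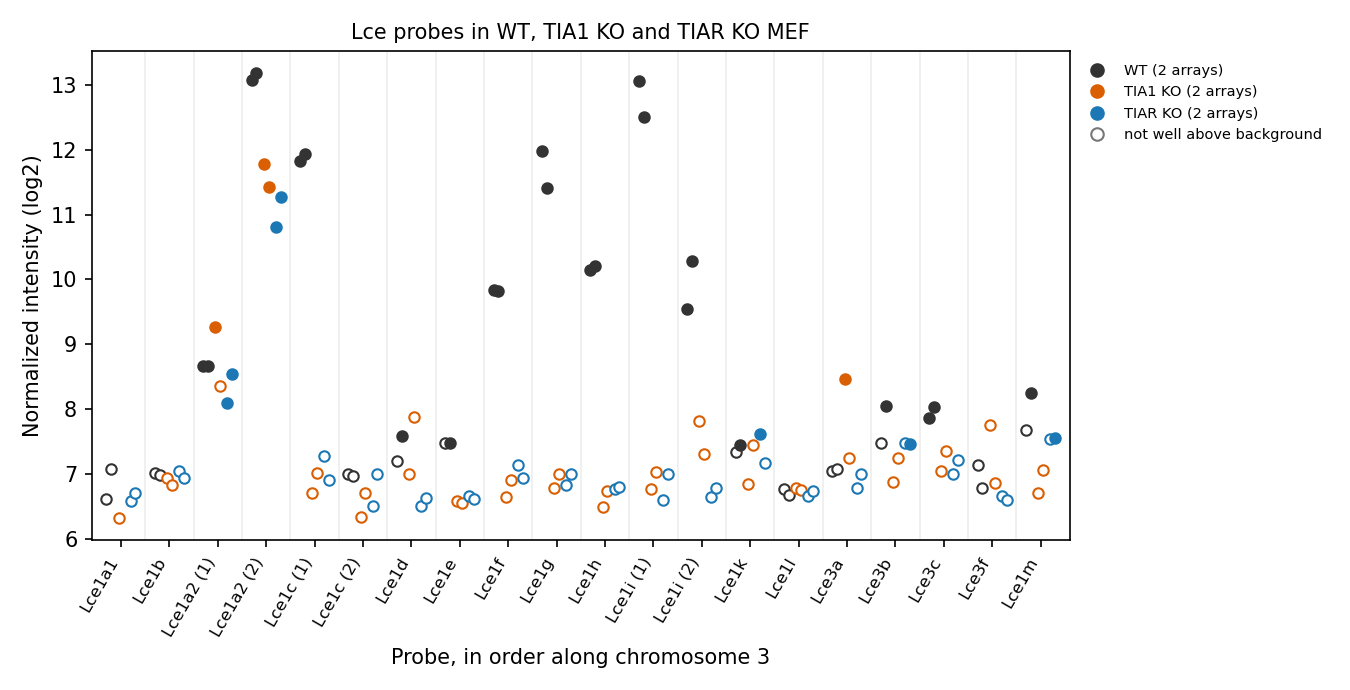
Log2 normalized intensity (vertical axis) of each of the 20 Lce probes, in their order along chromosome 3 (horizontal axis), on the 2 arrays of WT (black), TIA1 KO (orange) and TIAR KO (blue) MEF; open circles were not well above background, and a number after a gene tells its probes apart. On the called probes of 6 genes from Lce1a2 to Lce1i the WT arrays stand above all knockout arrays, and the probes of the other Lce genes lie at or below 8.46 on every array.

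Lce1c read 11.83 and 11.93 for WT, 6.71 and 7.02 for TIA1 KO and 7.28 and 6.91 for TIAR KO MEF. Lce1g read 11.98 and 11.41, then 6.78 and 6.99, then 6.82 and 6.99 in the same order of groups. Both genes followed the pattern of Lce1i, with 2 high WT arrays and 4 knockout arrays at background. The log2 fold change of Lce1c was -4.79 ± 0.18 in TIAR KO MEF (limma adjusted p = 0.000343), at least 24.9-fold lower, and -5.02 ± 0.18 in TIA1 KO MEF, at least 20.5-fold lower. That of Lce1g was -4.79 ± 0.23 in TIAR KO MEF (limma adjusted p = 0.000549), at least 25.7-fold lower, and -4.81 ± 0.25 in TIA1 KO MEF, at least 18.2-fold lower. A further Lce1c probe read 6.33 to 6.99 on the 6 arrays and was not well above background on any, WT included, so it could not show a fall.

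Lce1h read 10.15 and 10.21 for WT, 6.49 and 6.73 for TIA1 KO and 6.76 and 6.80 for TIAR KO MEF. Lce1f read 9.83 and 9.82 for WT, 6.64 and 6.90 for TIA1 KO and 7.14 and 6.93 for TIAR KO MEF. Again no knockout array came near the WT arrays. Lce1h fell by 3.40 ± 0.14 in TIAR KO MEF (limma adjusted p = 0.000367), at least 9.16-fold, and stood at least 6.97-fold below WT in TIA1 KO MEF (log2 fold change -3.57 ± 0.17). Lce1f fell by 2.79 ± 0.15 (limma adjusted p = 0.000765), at least 6.28-fold, and stood at least 5.14-fold below WT in TIA1 KO MEF (log2 fold change -3.06 ± 0.17).

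Lce1a2 was the Lce gene that stayed well above background on all 6 arrays. Its brighter probe (chr3:92473024-92473083) read 13.08 and 13.18 for WT, 11.78 and 11.42 for TIA1 KO and 10.80 and 11.27 for TIAR KO MEF. The 3 groups did not overlap, and the knockout arrays kept a clear signal. It fell by 2.09 ± 0.20 in TIAR KO MEF (limma adjusted p = 0.00462) and read lower in TIA1 KO MEF, at -1.53 ± 0.19, where its call was lost under 6 of 14 alternatives, among them the deposited log2 table, an offset of 16 and the replicate block. Its other probe read 8.66 and 8.66 for WT, 9.26 and 8.35 for TIA1 KO and 8.09 and 8.54 for TIAR KO MEF. There the TIA1 KO arrays lay on either side of WT and the change in TIAR KO MEF, -0.35 ± 0.19, was not called (limma adjusted p = 0.422), so the 2 probes disagree.

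Lce1e, whose promoter window holds AATAAAAGGA, read 7.47 and 7.47 for WT, 6.58 and 6.55 for TIA1 KO and 6.66 and 6.61 for TIAR KO MEF. The knockout arrays were lower, near the floor, and the change in TIAR KO MEF was -0.84 ± 0.14 (limma adjusted p = 0.0259), under the fold threshold and at least 1.45-fold lower. Among the Lce3 genes, which are known for their induction in wounded or inflamed skin, Lce3c read 7.86 and 8.03 for WT, 7.04 and 7.35 for TIA1 KO and 7.0 and 7.22 for TIAR KO MEF. It was dim throughout, and its change of -0.83 ± 0.16 in TIAR KO MEF (limma adjusted p = 0.0423), at least 1.78-fold lower, was also under the fold threshold. It was called at -1.12 with an offset of 16 and at -3.21 with the processed signal. The 10 Lce genes not well above background on both arrays of any group, Lce1e among them, read between 6.32 and 8.46.

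The S100a genes came next in number of calls. Of the 17 probes, 5 fell in TIAR KO MEF (29.4%) and 3 were called lower in TIA1 KO MEF (17.6%), and none was called higher. Of all probes, 2.37% and 1.36% were called lower. Of the 17, 16 were well above background on both WT arrays, and among all probes so rated 10.8% and 6.3% were called. The median log2 fold change of the family was -0.55 in TIAR KO and -1.06 in TIA1 KO MEF. Of the 14 genes, 13 were rated well above background on both arrays in 1 group or more, and S100a9 was at background on every array, between 6.47 and 6.89.

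S100a1, known as a partner of the ryanodine receptor in muscle, read 11.33 and 10.96 for WT, 6.89 and 7.25 for TIA1 KO and 7.75 and 8.46 for TIAR KO MEF (chr3:90314959-90315018). WT MEF were high, TIAR KO MEF low but still well above background, and TIA1 KO MEF at background. It fell by 3.04 ± 0.28 in TIAR KO MEF (limma adjusted p = 0.00406) and stood at least 11.4-fold below WT in TIA1 KO MEF (log2 fold change -4.07 ± 0.23). A further S100a1 probe gave the same order, with 10.18 and 11.22 for WT, 6.84 and 7.18 for TIA1 KO and 8.23 and 8.32 for TIAR KO MEF. It fell by 2.43 ± 0.35 in TIAR KO MEF (limma adjusted p = 0.0168) and stood at least 8.56-fold below WT in TIA1 KO MEF.

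S100a13, which takes part in the release of proteins that lack a signal peptide, read 14.65 and 14.81 for WT, 13.16 and 13.12 for TIA1 KO and 12.48 and 12.64 for TIAR KO MEF (chr3:90328442-90328501). The groups did not overlap, and all 6 arrays were well above background. It fell by 2.17 ± 0.15 in TIAR KO MEF (limma adjusted p = 0.00173), and read lower in TIA1 KO MEF, at -1.59 ± 0.16, where its call was lost under 4 of 14 alternatives, among them the replicate block.

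S100a1 and S100a13 start back to back, on opposite strands and 105 bases apart. The stretch between them in GRCm38.p6 (chr3:90514310-90514455, plus strand) is shown because both genes moved the same way, with 20 bases beyond each start and the 2 start bases in capitals.
S100a1 and S100a13: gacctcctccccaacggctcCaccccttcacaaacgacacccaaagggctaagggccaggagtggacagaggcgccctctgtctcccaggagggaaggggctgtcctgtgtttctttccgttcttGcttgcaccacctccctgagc

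S100a7a, the mouse relative of the human psoriasin genes, read 9.67 and 10.47 for WT, 7.38 and 8.41 for TIA1 KO and 6.97 and 7.19 for TIAR KO MEF. The TIAR KO arrays were at background and 1 of the 2 TIA1 KO arrays was above it. It fell by 2.99 ± 0.29 in TIAR KO MEF (limma adjusted p = 0.00467), at least 7.88-fold, and its change in TIA1 KO MEF, -2.17 ± 0.47, was not called, but was under 4 of 14 alternatives, the replicate block among them. S100a8, the partner of S100a9 in the neutrophil protein calprotectin, read 8.29 and 8.80 for WT, 7.38 and 7.59 for TIA1 KO and 6.85 and 6.97 for TIAR KO MEF. Both knockouts were at background, and the gene fell by 1.64 ± 0.21 in TIAR KO MEF (limma adjusted p = 0.012), at least 2.87-fold. The value in TIA1 KO MEF, -1.06 ± 0.24, was not called, but was under 1 of 14 alternatives, the fit of all 3 groups. The TIAR KO calls of S100a8 and of the further S100a1 probe were lost when either TIAR KO array was left out.

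**Figure D2:**
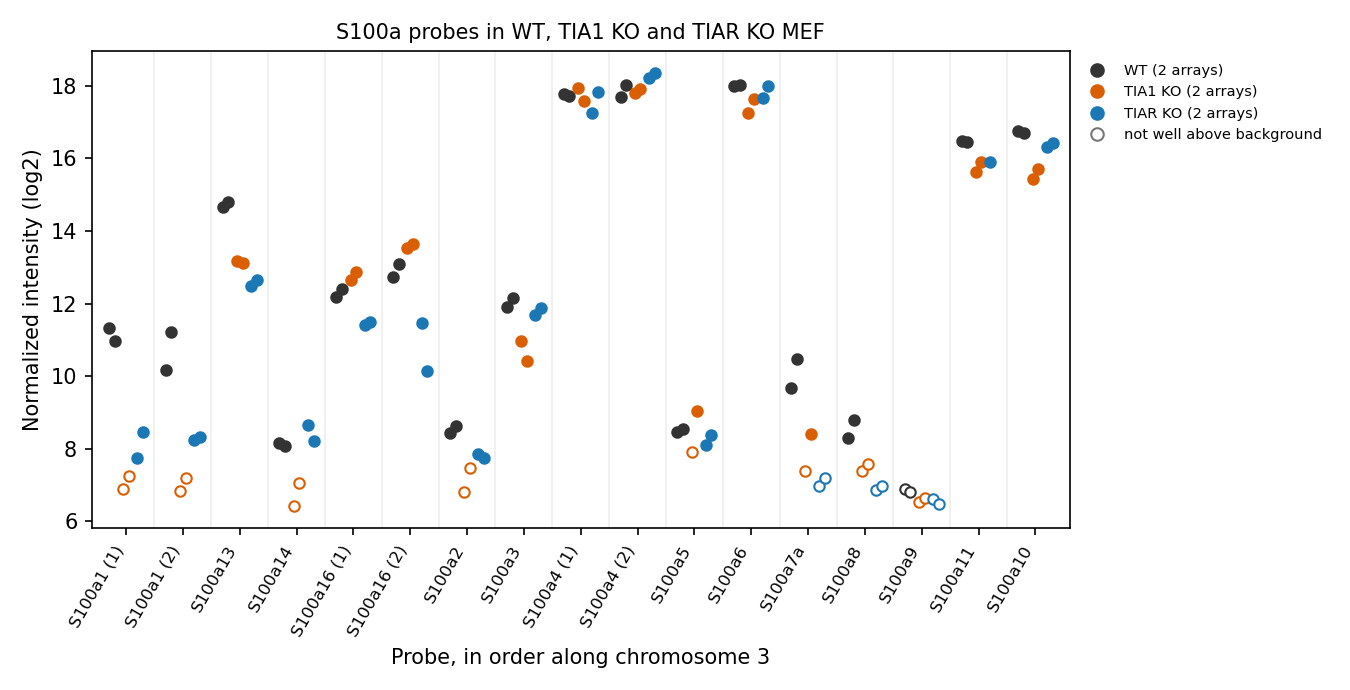
Log2 normalized intensity (vertical axis) of each of the 17 S100a probes, in their order along chromosome 3 (horizontal axis), on the 2 arrays of WT (black), TIA1 KO (orange) and TIAR KO (blue) MEF; open circles were not well above background. S100a1 and S100a13 are lower on all 4 knockout arrays, S100a7a and S100a8 lowest in TIAR KO MEF, and S100a4 and S100a6 lie between 17.25 and 18.36 on every array.

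S100a16, an EF-hand protein found in many tissues, lay on opposite sides of WT in the 2 knockouts. Its brighter probe read 12.74 and 13.08 for WT, 13.53 and 13.64 for TIA1 KO and 11.45 and 10.13 for TIAR KO MEF. Both TIA1 KO arrays were above WT and both TIAR KO arrays below it. The change in TIAR KO MEF was -2.12 ± 0.44 (limma adjusted p = 0.0518), above the threshold of 0.05, and that in TIA1 KO MEF 0.68 ± 0.19, which turned to -0.87 when arrays were scaled to a common median. A further probe showed the same order, with 12.17 and 12.39, then 12.66 and 12.88, then 11.42 and 11.50, and a change of -0.82 ± 0.16 in TIAR KO MEF (limma adjusted p = 0.0393), under the fold threshold.

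S100a14, S100a2 and S100a3 are made in epithelia and hair. S100a14 read 8.16 and 8.08 for WT, 6.41 and 7.05 for TIA1 KO and 8.66 and 8.20 for TIAR KO MEF. S100a2 read 8.43 and 8.63, then 6.80 and 7.48, then 7.85 and 7.75, and S100a3 read 11.90 and 12.14, then 10.97 and 10.42, then 11.68 and 11.87, in the same order of groups. All 3 were lowest in TIA1 KO MEF, where the log2 fold changes were -1.39 ± 0.26, -1.39 ± 0.28 and -1.32 ± 0.25 and no probe was called, although each passed both thresholds under some of the 14 alternatives (4, 3 and 6). The TIA1 KO arrays of S100a14 and S100a2 were at background, so these were at least 1.5-fold and 1.71-fold lower. In TIAR KO MEF the changes of S100a14 (0.31 ± 0.20), S100a2 (-0.73 ± 0.15) and S100a3 (-0.25 ± 0.17) were not called either, with limma adjusted p of 0.492, 0.0537 and 0.508.

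The S100a genes usual for fibroblasts and other mesenchymal cells kept a strong signal in every group. S100a4, also called fibroblast-specific protein, read between 17.69 and 18.36 on its brighter probe, with a log2 fold change of 0.43 ± 0.18 in TIAR KO MEF (limma adjusted p = 0.260), and a further probe gave -0.21 ± 0.22 (limma adjusted p = 0.699). S100a6 read between 17.25 and 18.03, with a change of -0.18 ± 0.17 (limma adjusted p = 0.657) in TIAR KO MEF. Its change in TIA1 KO MEF, -0.57 ± 0.20, was not called, but was at -2.04 after scaling to a common median. S100a10, the partner of annexin A2, read 16.75 and 16.71 for WT, 15.44 and 15.71 for TIA1 KO and 16.30 and 16.43 for TIAR KO MEF. Both TIA1 KO arrays were the lowest, at a change of -1.15 ± 0.17 that was not called, but was under 5 of 14 alternatives and became -2.72 after scaling to a common median. The change in TIAR KO MEF was -0.36 ± 0.14 (limma adjusted p = 0.249). S100a11, the partner of annexin A1, read 16.49 and 16.44, then 15.61 and 15.89, then 15.91 on TIAR KO replicate 1, its spot on replicate 2 having been dropped as an outlier, giving -0.55 ± 0.19 against WT (limma adjusted p = 0.212). The S100a11 change in TIA1 KO MEF, -0.71 ± 0.18, was not called, but was at -2.26 after scaling to a common median. S100a5 stayed between 7.90 and 9.05, with a change of -0.26 ± 0.17 (limma adjusted p = 0.480) in TIAR KO MEF.

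The Sprr genes, whose products form flexible bridges in the cornified envelope, were mostly at background. Of the 17 probes, 1 rose in TIAR KO MEF (5.88%, near the 5.76% of all probes called) and none was called in TIA1 KO MEF. The median log2 fold change was 0.02 and -0.02. Of the 15 genes, 11 were not well above background on both arrays of any group and read between 6.26 and 9.06. The value of 9.06 was Sprr2e on TIAR KO replicate 1, while replicate 2 read 6.77.

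Sprr1a, which is induced in stressed and regenerating tissue, read 8.09 and 8.36 for WT, 6.84 and 7.41 for TIA1 KO and 8.27 and 8.62 for TIAR KO MEF. TIA1 KO MEF were at background and TIAR KO MEF near WT, with a change of 0.22 ± 0.19 (limma adjusted p = 0.631) in TIAR KO MEF. The change in TIA1 KO MEF, -1.10 ± 0.26, was not called and was at least 1.42-fold lower. It was called under 2 of 14 alternatives, scaling to a common median among them. Sprr2k read 6.69 and 6.97 for WT, 6.54 and 6.73 for TIA1 KO and 7.49 and 7.70 for TIAR KO MEF, and its change of 0.77 ± 0.18 in TIAR KO MEF was not called (limma adjusted p = 0.0668). Sprr2j-ps, a pseudogene, read 6.85 and 7.03, then 8.22 and 6.97, then 7.79 and 7.93, with a change of 0.92 ± 0.15 (limma adjusted p = 0.0267), under the fold threshold. Sprr2j-ps was called higher under 3 of 14 alternatives, at 1.13 with the deposited log2 table, 1.32 with an offset of 16 and 2.53 with the processed signal, and Sprr2k with the processed signal, at 2.93. In both genes, the 2 TIAR KO arrays were above WT by a small margin close to the floor, at least 1.44-fold for Sprr2k and 1.69-fold for Sprr2j-ps.

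Sprr2a2 had 3 probes that differed widely. The probe that rose (chr3:92058417-92058476), singled out after its values were seen, read 6.76 and 6.74 for WT, 8.29 and 7.16 for TIA1 KO and 8.35 and 8.17 for TIAR KO MEF. WT MEF were at background and both TIAR KO arrays above it, with a change of 1.51 ± 0.15 (limma adjusted p = 0.00481), at least 2.46-fold higher. In the fit of all 3 groups together it was not called. A further probe read between 6.44 and 6.88 on every array.

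The brightest Sprr2a2 probe (chr3:92060587-92060646) read 18.12 and 18.09 for WT, 18.06 and 18.19 for TIA1 KO and 18.30 and 18.30 for TIAR KO MEF. Its change in TIAR KO MEF was 0.19 ± 0.14 (limma adjusted p = 0.545). This probe shared runs of 16 to 31 bases with 11 probes of other names, whose mean log2 values were 15.74 to 18.61, and it is therefore an uncertain reading of Sprr2a2. The longest run was shared with NAP061860-1, a transcript placed on chromosome 4. Its first 30 bases are printed for both probes in capitals, 5′ to 3′.
Sprr2a2, brightest probe: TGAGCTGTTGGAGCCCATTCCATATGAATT
NAP061860-1: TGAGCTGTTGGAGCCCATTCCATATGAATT

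**Figure D3:**
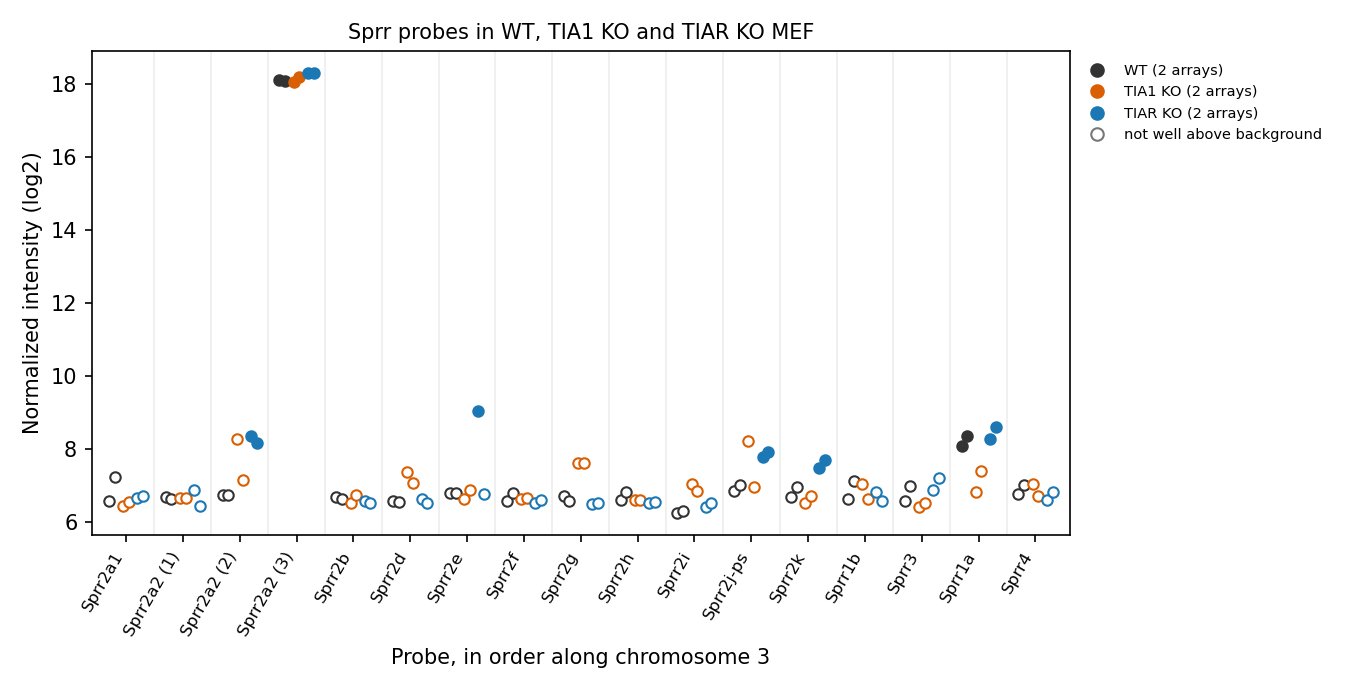
Log2 normalized intensity (vertical axis) of each of the 17 Sprr probes, in their order along chromosome 3 (horizontal axis), on the 2 arrays of WT (black), TIA1 KO (orange) and TIAR KO (blue) MEF; open circles were not well above background. Apart from the Sprr2a2 probe near 18.12, every value lies at 9.06 or lower.

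The interval also held 89 probes of 54 other names. Of these, 4 fell in TIAR KO MEF (4.49%), where 5.76% of all probes were called, and 6 were called in TIA1 KO MEF (6.74%), 5 lower and 1 higher, where 3.54% were. Leaving out an array gave 1 (without TIAR KO replicate 2), 2 (without WT replicate 2) or 3 calls in TIAR KO MEF. In TIA1 KO MEF there were 9 without TIA1 KO replicate 1, 22 without TIA1 KO replicate 2 and 0 without either WT array. A transcript named ENSMUST00000107304 (chr3:92593304-92593363), the next probe after Lce1i, read 11.63 and 11.76 for WT, 10.57 and 9.60 for TIA1 KO and 9.56 and 10.04 for TIAR KO MEF. Both knockouts lay below WT, and it fell by 1.90 ± 0.20 in TIAR KO MEF (limma adjusted p = 0.00654). Lce1d and Lce1e, which lie between Lce1c and Lce1f, and Lce1k and Lce1l, which lie beyond Lce1i, had no call. Lce1d and Lce1e were well above background on only 1 WT array, near the floor. Both were called lower in TIAR KO MEF with an offset of 16. Lce1e was also called lower in TIAR KO MEF with the processed signal, and in TIA1 KO MEF with scaling to a common median.

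Between the S100a6 and S100a7a probes, 5 probes tile the plus strand of a lincRNA named by its region, chr3:90425270-90435820_F. The probe starting at 90428145 read 12.09 and 12.12 for WT, 8.82 and 9.22 for TIA1 KO and 11.22 and 10.93 for TIAR KO MEF. TIA1 KO MEF were lowest, TIAR KO MEF between, and no array of one group overlapped another. All 5 probes were called lower in TIA1 KO MEF, with log2 fold changes from -2.05 to -3.24, but 4 of the 5 calls were lost with the replicate block, and all 5 with the processed signal or without either WT array. In TIAR KO MEF the same 5 ranged from -0.61 to -1.10, and 2 of them fell past both thresholds, those starting at 90427951 (-1.10 ± 0.15, limma adjusted p = 0.0152) and at 90428145 (-1.03 ± 0.16, limma adjusted p = 0.0232), calls that were lost under 7 and 8 of 14 alternatives. The probe of the interval called higher in TIA1 KO MEF starts at 90427570 on the same strand, within the same region, and is named for a shorter lincRNA there. It read 7.59 and 7.19 for WT, 9.09 and 9.59 for TIA1 KO and 7.11 and 7.17 for TIAR KO MEF, the opposite direction to the 5 probes in TIA1 KO MEF, and this call too was lost with the replicate block.

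**Figure D4:**
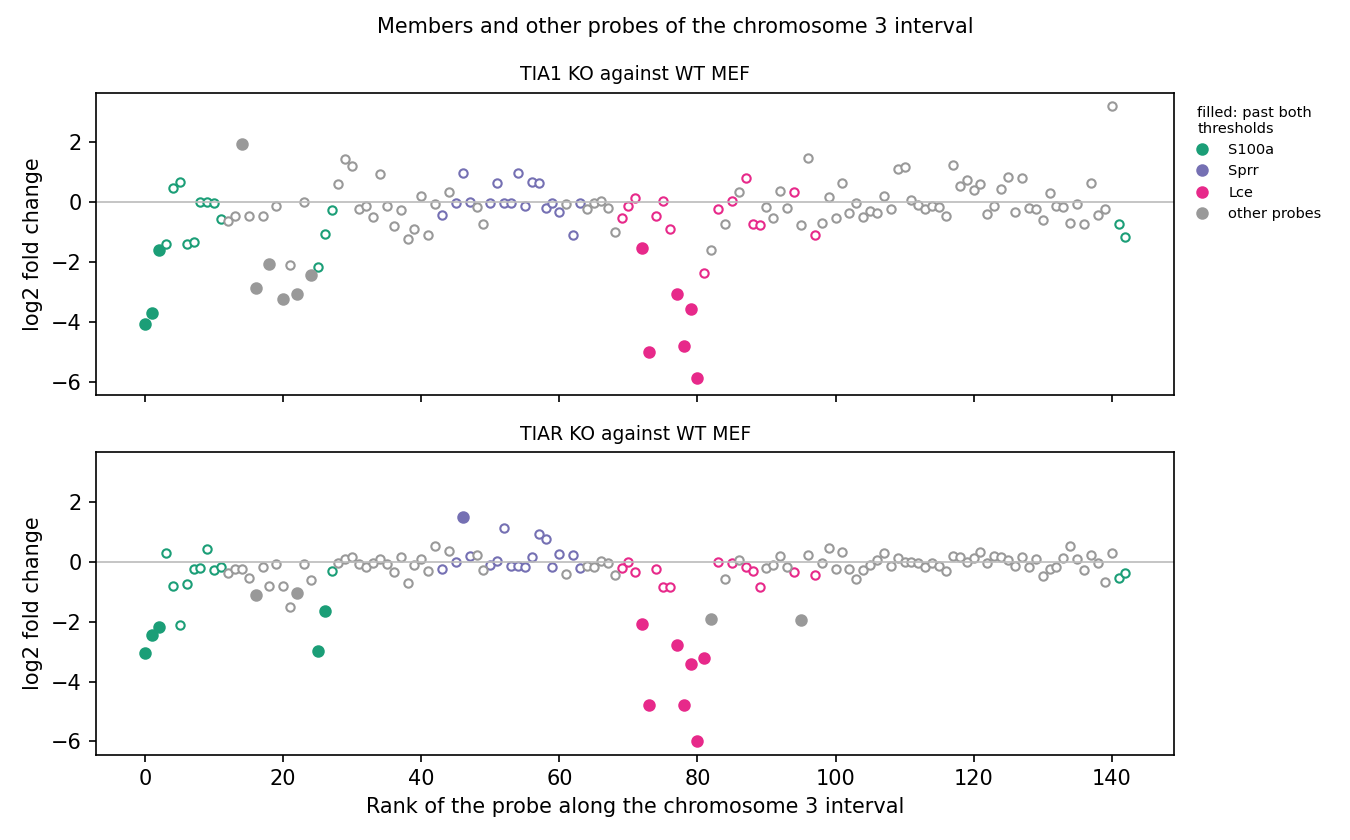
Log2 fold change (vertical axis) of every probe of the chromosome 3 interval, in order along it (horizontal axis, rank), in TIA1 KO (upper panel) and TIAR KO (lower panel) against WT MEF, which share the WT arrays; colours mark the families and filled circles were past both thresholds. Filled circles below 0 gather at S100a1 and S100a13, at S100a7a and S100a8 in TIAR KO MEF, at the lincRNA, and at the Lce1 genes down to -5.88 and -5.98.

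Other genes of the complex and of epidermal differentiation were read from lists, each gene by its brightest probe. Beside these counts and those of the markers below, 5.76% of all probes were called in TIAR KO and 3.54% in TIA1 KO MEF. Of all probes well above background on both WT arrays, 10.8% and 6.3% were called. Of 17 further chromosome 3 genes in or near the complex, 1 fell in TIAR KO MEF and none was called in TIA1 KO MEF, with medians of -0.11 and -0.23. The list includes Lingo4 and Nup210l, which lie outside the interval of the members and were not called. The gene that fell was Crct1, which read 8.86 and 9.36 for WT, 8.12 and 8.59 for TIA1 KO and 7.45 and 6.87 for TIAR KO MEF (-1.95 ± 0.27, limma adjusted p = 0.015), a call lost without TIAR KO replicate 2 (adjusted p = 0.0654) and with the processed signal (adjusted p = 0.0974). A further Crct1 probe read 6.53 and 6.56 for WT, 7.13 and 8.90 for TIA1 KO and 6.67 and 6.90 for TIAR KO MEF. It was not well above background on any WT or TIAR KO array, so it could not show a fall. Lor, which encodes loricrin, the main envelope protein, read 8.71 and 8.63, then 7.12 and 7.75, then 7.80 and 8.12. Its change in TIAR KO MEF was -0.71 ± 0.17 (limma adjusted p = 0.0776). Its change in TIA1 KO MEF was -1.23 ± 0.26, at least 1.71-fold lower and not called. It was called there with scaling to a common median (-1.47) and in the fit of all 3 groups, and was -1.55 without TIA1 KO replicate 2. Ivl and Flg, for involucrin and filaggrin, were at background on all 6 arrays.

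Of 24 cornified envelope and desquamation genes elsewhere in the genome, 3 rose and 2 fell in TIAR KO MEF, and 2 were called higher and 2 lower in TIA1 KO MEF (medians -0.12 and -0.17). Ppl, for the envelope scaffold periplakin, rose by 2.83 ± 0.16 (limma adjusted p = 0.000911) but was not called in the fit of all 3 groups (limma adjusted p = 0.0856). Aloxe3, a lipoxygenase of the skin barrier, fell by 1.59 ± 0.21 in TIAR KO MEF (limma adjusted p = 0.0126) and was called lower in TIA1 KO MEF. The Aloxe3 call in TIAR KO MEF was lost without either TIAR KO array (limma adjusted p = 0.0721 and 0.0743) and with the processed signal (0.0756). In TIA1 KO MEF the calls of Aloxe3, Cnfn and Sbsn were each lost under 5 of 14 alternatives, the replicate block among them. Cst6, a protease inhibitor of the stratum corneum, was 3.62 ± 0.17 higher in TIA1 KO MEF, and Cnfn, for cornifelin, at least 2.20-fold lower there. Tgm1, a transglutaminase of the envelope, was at background on all 6 arrays. The other called genes, named after their values were seen, were Cdsn and Tgm2, which rose in TIAR KO MEF, and Sbsn, which fell in TIAR KO MEF and was called higher in TIA1 KO MEF. The Tgm2 call was lost under 5 of 14 alternatives, including leaving out WT replicate 1 or either of the TIAR KO arrays.

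Of 25 epidermal transcription factors, 2 rose in TIAR KO MEF and none fell, and 4 were called higher and 1 lower in TIA1 KO MEF (medians -0.04 and 0.22). Gata3 read 7.68 and 7.81 for WT, 12.15 and 12.32 for TIA1 KO and 11.40 and 11.57 for TIAR KO MEF. It was high in both knockouts, and rose by 3.74 ± 0.15 in TIAR KO MEF (limma adjusted p = 0.000367). Hopx and Tfap2a were at least 9.97-fold and 9.08-fold higher in TIA1 KO MEF. The factor called lower there, named after its values were seen, was Arnt, whose call was lost under 8 of 14 alternatives. Trp63, which encodes the p63 factor of basal keratinocytes, read between 10.74 and 11.86 and had no call, Grhl3, a factor of the skin barrier, was at background, and Klf4, which drives late differentiation, had a log2 fold change of 0.76 in TIAR KO MEF (limma adjusted p = 0.102) and was called higher, at 1.54, in TIA1 KO MEF, a value of 0.05 after scaling to a common median and a call lost under 5 of 14 alternatives.

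Of 16 keratins, 3 rose and 1 fell in TIAR KO MEF, and 2 were called higher in TIA1 KO MEF (medians -0.06 and -0.08). Krt18 rose by 2.72 ± 0.14 (limma adjusted p = 0.000707), Krt8 by 1.23 ± 0.15 (limma adjusted p = 0.0099) and Krt13 at least 4.55-fold (limma adjusted p = 0.0214), and Krt80 fell by 1.36 ± 0.14 (limma adjusted p = 0.00541). The Krt13 call was lost without either WT array (limma adjusted p = 0.0744 and 0.067), that of Krt8 without TIAR KO replicate 2 (limma adjusted p = 0.0606), and that of Krt80 with the processed signal and in the fit of all 3 groups (limma adjusted p = 0.0763 and 0.0783). Krt8 and Krt18 form the filaments of simple epithelia. Krt80 read 9.82 and 9.86 in WT MEF, and its change in TIA1 KO MEF, -1.71 ± 0.35, was not called. It was called there with scaling to a common median (-2.34) and in the fit of all 3 groups. Of the keratins of stratified epidermis, Krt14 read 7.87 and 7.95 in WT MEF. Krt5 was above background on 1 WT array only and Krt1 was at background throughout, and none of these had a call. Krt10 read 9.65 and 10.37 in WT MEF and had no call. The keratins called higher in TIA1 KO MEF were Krt8 and, named after its values were seen, Krt19, but these calls were lost under 9 and 10 of 14 alternatives, and Krt8 was 0.41 after scaling to a common median against 1.23.

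Of 19 other S100 genes, S100 partners and receptors, 1 rose (Anxa6, by 1.62 ± 0.15, limma adjusted p = 0.00437) and 1 fell (S100pbp, by 1.12 ± 0.17, limma adjusted p = 0.0199) in TIAR KO MEF, and none was called in TIA1 KO MEF (medians 0.22 and 0.06). The Anxa6 call was lost with the processed signal (limma adjusted p = 0.0725). The S100pbp call was lost under 5 of 14 alternatives, including leaving out WT replicate 2 or either of the TIAR KO arrays (limma adjusted p = 0.0724, 0.0992 and 0.0831). Anxa2, for annexin A2, read between 17.65 and 18.41, and Ager, the receptor for several S100 proteins, read between 7.14 and 7.70.

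Markers of other cell types were counted beside these results, and their part in them was not tested. Of 10 keratinocyte markers, none was called in either knockout. The log2 of their summed intensity was 12.02 and 12.09 for WT, 12.50 and 12.20 for TIA1 KO and 11.96 and 12.07 for TIAR KO MEF, with the Trp63 probe the brightest. On both WT arrays 4 of the 10 were well above background: Trp63 (10.83 and 10.74), Krt10 (9.65 and 10.37), Lor (8.71 and 8.63) and Krt14 (7.87 and 7.95). Krt5 was so on 1 WT array, and Krt1, Dsg3, Dsc3, Ivl and Flg were at background on all 6 arrays.

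Of 10 simple epithelium markers, 4 rose in TIAR KO MEF (Cdh1, Cdh3, Krt8 and Krt18) and 3 were called higher in TIA1 KO MEF (Cdh3, Krt8 and Krt19). Their log2 sums were 12.56 and 12.67 for WT, 13.69 and 13.74 for TIA1 KO and 13.36 and 13.40 for TIAR KO MEF, with the Krt19 probe the brightest. Of 11 neutrophil markers, which include the members S100a8 and S100a9, S100a8 alone fell in TIAR KO MEF and none was called in TIA1 KO MEF. That fall is the member result given above, counted again. The neutrophil sums were 14.94 and 14.20, then 14.80 and 14.64, then 14.70 and 14.54 in the same order of groups, with the Csf3r probe the brightest.

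Of 9 macrophage markers, Cd14 fell in TIAR KO MEF, a call lost without either TIAR KO array, and Itgam was called higher in TIA1 KO MEF, a call lost under 8 of 14 alternatives. The brightest probe was that of Cd14 in WT MEF and that of Itgam in both knockouts. The macrophage sums were 13.47 and 13.38 for WT, 14.39 and 14.21 for TIA1 KO and 13.30 and 13.30 for TIAR KO MEF. Of 10 muscle markers, Acta1 and Des rose and S100a1 fell in TIAR KO MEF (the Des call was lost without WT replicate 1 and without TIAR KO replicate 1), and Acta1 was called higher and S100a1 lower in TIA1 KO MEF, with sums of 12.76 and 12.03, then 11.39 and 11.33, then 12.57 and 12.63. The brightest muscle probe was that of S100a1, itself a member here, in WT MEF and that of Acta1 in both knockouts. Tnnt2 read 11.62 and 10.03 for WT, 7.28 and 7.72 for TIA1 KO and 10.2 and 11.2 for TIAR KO MEF. Its change in TIA1 KO MEF, -3.33 ± 0.59, at least 7.74-fold lower, was not called. Of 10 melanocyte and Schwann cell markers, Mlana rose and Mitf fell in TIAR KO MEF (the Mitf call was lost in the fit of all 3 groups) and none was called in TIA1 KO MEF, with sums of 11.76 and 11.77, then 10.78 and 11, then 11.38 and 11.42. The brightest of these probes was that of Mitf in WT and TIA1 KO MEF and that of Mlana in TIAR KO MEF.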

How the data were processed

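RNA of 6 MEF samples (2 WT, 2 TIA1 KO, 2 TIAR KO) was labelled with 1 dye and hybridised to Agilent mouse 8x60 arrays. The authors deposited each array's scanner output, with the mean spot and median background intensity of every spot, and a table of log2 values that they had background-corrected and normalized with limma; per the file headers, spots were read with Agilent Feature Extraction and placed on mm9. Here the deposited intensities were background-corrected with normexp (offset 50), taken to log2, and normalized by cyclic loess and quantiles over all spots. Control spots and spots flagged as outliers were then left out, and the spots of a probe were averaged (432 probes had more than 1). Values correlated with the deposited log2 table at 0.9972 to 0.9995 per array; no spot was saturated.

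Each knockout was compared with WT on its own 4 arrays by lmFit and eBayes (limma 3.58.1, R 4.3.3), with Benjamini-Hochberg adjustment over 55681 probes. A call needed a fold change above 2 and an adjusted p under 0.05. The procedure was tested on simulated data, and the outcome of that test is not given here. Named were the genes whose brightest probe was rated well above background on both arrays in 1 group or more, and, from each other list, up to 4 called genes with the largest change plus a few fixed genes; 1 gene that this rule names is not reported here. The members, lists, motifs and tests were chosen with earlier results of these data known, and support nothing by themselves. The labels do not say whether replicate numbers pair the samples, and the main fit did not pair them. The correlation of same-number deviations from the group means was 0.28 (WT and TIA1 KO), 0.018 (WT and TIAR KO) and -0.074 (TIA1 KO and TIAR KO) over 13729 probes. Same-numbered WT and TIA1 KO arrays shared slide columns 1 and 2, and the TIAR KO arrays lay in columns 3 and 4. The source of the 0.28 was not tested, and a fit with a replicate block was run as an alternative. Alternatives covered background correction, normalization, filtering, the fit, the deposited log2 table and leaving out each array. The exon or UTR that a probe lies in was not analysed here. Promoter windows came from RefSeq (GRCm38.p6) by gene symbol. Alignments were made with Biopython 1.88 and plots with matplotlib 3.10.9.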

Additional observations from a re-analysis of the deposited data

Results flagged for a closer look

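S100a14 and S100a16 were picked out because both arrays of a knockout lay above both WT arrays and both arrays of the other knockout lay below them. S100a14 was below WT in TIA1 KO MEF (log2 fold change -1.39) and above it in TIAR KO MEF (0.31). S100a16 was above WT in TIA1 KO MEF (0.68) and below it in TIAR KO MEF (-2.12). None of these 4 values was called, and the difference between the knockouts was not tested. S100a16 in TIAR KO MEF was called under 7 of 14 alternatives, among them the deposited log2 table (limma adjusted p = 0.0448) and no loess (limma adjusted p = 0.0452), and S100a14 in TIA1 KO MEF under 4 of 14. The 2 comparisons share the WT arrays, and with scaling to a common median S100a16 was -0.87 in TIA1 KO MEF.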

How the results depend on the processing

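Of the 13 probes called in TIAR KO MEF, 10 were called under all 14 alternatives. The exceptions were S100a8 and the further S100a1 probe without either TIAR KO array, and the raised Sprr2a2 probe in the fit of all 3 groups. The lower calls stayed between 10 and 16 under every alternative, and between 10 and 12 when an array was left out. The higher calls numbered 3 with the scanner software's processed signal (Sprr2j-ps and Sprr2k added), 2 with an offset of 16 and with the deposited log2 table, 0 in the fit of all 3 groups, and 1 to 2 when an array was left out. The 4 calls at other probes of the interval became 1 with the processed signal, 2 without loess, in the fit of all 3 groups and with the deposited log2 table, 7 with scaling to a common median, and 1 to 3 when an array was left out.

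Of the 9 probes called in TIA1 KO MEF, none was called under all 14 alternatives. The lower calls numbered 0 with the processed signal, 23 with scaling to a common median, 16 in the fit of all 3 groups, and 0 to 16 when an array was left out. The higher calls were 0 to 3 when an array was left out. The 6 calls at other probes of the interval became 0 with the processed signal, 20 with scaling to a common median, and 0 to 22 when an array was left out. With the processed signal limma called no probe of the array in TIA1 KO MEF, though 27765 had an unadjusted p under 0.05. Of the list genes, 16 of the 29 called in TIAR KO MEF and 0 of the 21 called in TIA1 KO MEF were called under all 14 alternatives. The Lce1i value ranged from -6.88 to -5.60 in TIA1 KO MEF and from -9.24 to -5.71 in TIAR KO MEF.

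Scaling moved the median of all probes in TIA1 KO MEF from -0.09 to -0.67 (common median) and 1.98 (processed signal). Called probes there numbered 1969, 1213 of them higher, against 15801, 1876 of them higher, with scaling to a common median, and in TIAR KO MEF 3206, 1885 of them higher, against 4139, 1424 of them higher. Uncalled values in TIA1 KO MEF turned sign too. With scaling to a common median S100a4 became -1.43 and the brightest Sprr2a2 probe -1.44, both then called, and S100a16 became -0.87, Trp63 -0.63 and Anxa6 -0.85. With the processed signal Sprr2k became 2.84, S100a5 0.71, Flg 2.87, Krt5 1.14, Tgm1 1.63 and Grhl3 1.44, among others.

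With the replicate number as a block, 8 member probes were lower in TIA1 KO MEF, 12 in TIAR KO MEF and 1 higher there, and 1 other probe of the interval was called in TIA1 KO MEF against 6 without the block. Lce1a2 and S100a13 lost their calls in TIA1 KO MEF under the block, and S100a7a gained one. Over the whole array, 671 probes were then called in TIA1 KO MEF against 1969 without the block, and 3302 in TIAR KO MEF against 3206.

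In TIAR KO against WT MEF, the values that turned sign were as follows. With the processed signal S100a4 became -0.05, Tia1 0.28, Ivl -0.09, Grhl3 0.18 and Krt14 0.04. With scaling to a common median the brightest Sprr2a2 probe, which was not the one called, became -0.16 and Trp63 -0.13. Without loess Tfap2a became -0.04, and with the deposited log2 table Tia1 became 0.12. When an array was left out, Tia1 ranged from -1.15 (without WT replicate 2, then past both thresholds) to 1.03, Ivl from -0.07 to 0.14, Flg from -0.23 to 0.01, Krt1 from -0.21 to 0.02, Krt10 from -0.46 to 0.25 and Anxa2 from -0.40 to 0.06, and Grhl3 reached 0.01. The cause of these changes was not tested. Dim probes, with knockout arrays at background, give nominal lower limits only.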
